A study of Mus musculus with 4 samples.

Results

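Ddr1 and Ddr2, the discoidin domain collagen receptors, were the 2 members examined among 32285 genes listed for every nucleus of the lateral septum (LS). They were chosen by symbol, and the choice was made with earlier results of these counts known, in which Ddr2 was lower in LS neurons of nude and BALB/c mice. The levels of Ddr2 in LS neurons and the levels of both genes across cell types are therefore given as a description, with no test. Ddr2 (ENSMUSG00000026674) lies on the minus strand of chromosome 1 at 169972307 to 170110762, and Ddr1 (ENSMUSG00000003534) on the minus strand of chromosome 17 at 35681567 to 35704621, both in GRCm38 (mm10).

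Discoidin domain receptors are receptor tyrosine kinases that bind triple-helical collagen through an extracellular discoidin domain, and they are slow to activate compared with growth factor receptors. Ddr1 is known from epithelia and, in brain, from oligodendrocytes and their precursors. Ddr2 is known from mesenchymal cells such as fibroblasts and binds mainly fibrillar collagens. Both receptors signal through adaptors and kinases such as Shc1 and Src, and membrane proteases such as Adam10 can release the extracellular part of Ddr1.

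In single-nucleus RNA sequencing each captured RNA molecule is tagged with a unique molecular identifier (UMI), so that UMIs rather than reads were counted. The 4 libraries were made from LS tissue of male mice aged 6 to 8 weeks by the labels (the study's methods have the mice bought at the upper of these ages), each pooling 3 mice. C57J 1 and C57J 2 came from separate pools of C57BL/6JNifdc mice. 1 library came from BALB/c nude mice, which lack functional Foxn1 and are deficient in T cells, and 1 from BALB/c mice, so that the latter 2 share a strain background that differs from C57J. By the labels C57J 1 was batch 1 on its own, whereas C57J 2, nude and BALB/c were batch 2, and values against C57J 2 alone are values within a batch. Pools of animals hide the spread between mice, and with 1 library each nude and BALB/c were not tested apart, other than in fits that leave out the other library.

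Libraries held 12558 to 17025 barcodes and between 72912922 and 125998527 UMIs in all. After quality limits and removal of predicted doublets 49425 nuclei remained, with a median of 4082 to 8413 UMIs per library, of which BALB/c was the deepest. Pairs of libraries shared 23 to 44 barcodes. Nuclei were grouped into classes by markers, so that each class name means cells resembling that type. The 21985 LS neurons were named by markers that include Trpc4, so its excess there follows in part from the naming. They carried it at 807.6 to 848.8 CPM (a gene's UMIs relative to all UMIs of its class in a library). In the 9178 other neurons it was at 90.2 to 143. A cluster of 800 nuclei led by Gm42418 and Hspa8 was left unnamed.

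In all, 13445 Ddr1 UMIs and 3684 Ddr2 UMIs were counted, and they fell in different classes. Oligodendrocytes (OLs) made up 10.7% of the nuclei and held 27.6% of the Ddr1 UMIs but 1.36% of the Ddr2 UMIs. LS neurons made up 44.5% of the nuclei and held 41.2% of the Ddr1 UMIs and 80.2% of the Ddr2 UMIs. No more than 9 Ddr2 UMIs were found in any nucleus of LS neurons, and the largest Ddr1 count in an OL nucleus was 14. Both genes were thus sparse, and levels are given as CPM.

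Ddr1 was highest in OLs, the myelinating cells, at 270.2 ± 41.7 CPM (SD, n = 4 libraries). The next level, 130.2 ± 9.64, was that of neuroblast or cycling nuclei, followed by newly forming OLs at 89.4 ± 14.8, oligodendrocyte precursors (OPCs) at 59.8 ± 3.94 and astrocytes at 57.8 ± 8.72. The libraries of OLs, neuroblast or cycling nuclei, newly forming OLs and OPCs did not overlap from one to the next, whereas those of OPCs and astrocytes did. Among astrocytes, a cluster of 864 nuclei with Dkk3 among its leading genes held Ddr1 at 102.1 ± 38.9. The other astrocyte clusters held it at 54.3 ± 5.55 and 49.7 ± 13.3. Vascular nuclei held Ddr1 at 38.7 ± 14.5, other neurons at 30.5 ± 2.54, microglia at 29.9 ± 12.2 and LS neurons at 29.03 ± 1.09. Neighbours in this lower part of the order overlapped.

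Ddr2 had another order. Vascular nuclei, 1 cluster of 201 nuclei that carries endothelial, mural and fibroblast markers, held it at 101.5 ± 54.3 CPM (SD, n = 4), above every other class in every library. Astrocytes followed at 16.4 ± 4.34, LS neurons at 16.3 ± 6.93 and OPCs at 14.4 ± 2.18. Neuroblast or cycling nuclei held 8.50 ± 5.12, microglia 6.63 ± 4.55, newly forming OLs 5.54 ± 6.74, OLs 4.17 ± 2.90 and other neurons 1.91 ± 0.754. Below the vascular class each neighbour in the order overlapped with the next.

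**Figure D1:**
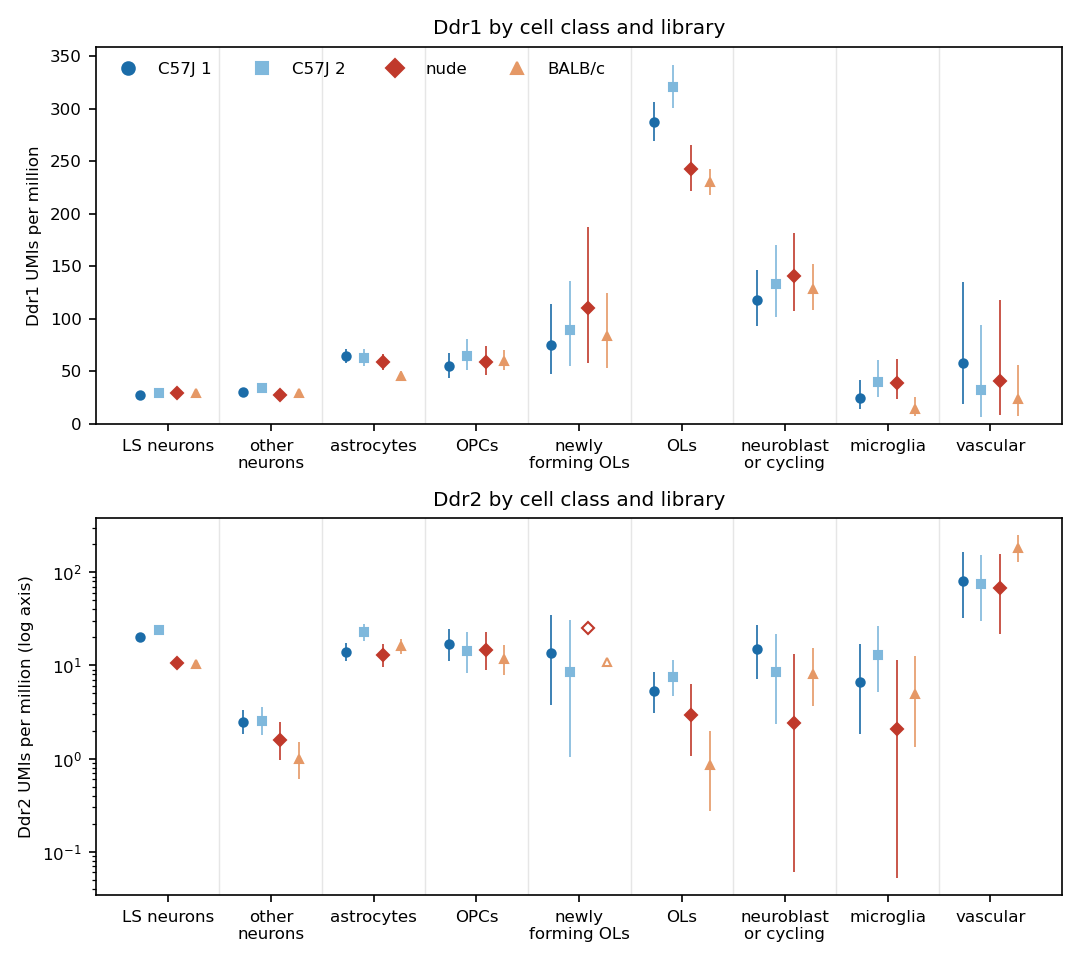
Ddr1 (upper panel, linear axis) and Ddr2 (lower panel, log axis) in CPM for 9 cell classes, with 1 point per library and bars for exact 95% Poisson intervals, which cover counting error only. Open symbols mark a count of 0, drawn at the level that 3 counts would give. Ddr1 peaks in OLs at 230.0 to 320.7, and Ddr2 in LS neurons sits at 20.4 and 23.9 in C57J against 10.6 and 10.2 in nude and BALB/c.

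Free RNA in droplets can give a UMI in nuclei that do not express a gene. The share of nuclei with a UMI was therefore compared at a fixed depth of 1000 UMIs per nucleus, leaving out shallower nuclei, with microglia taken as the background. Ddr1 was found in 22.8% ± 3.77 of OL nuclei (SD, n = 4 libraries), in 2.92% ± 0.304 of LS neurons and in 3.13% ± 1.18 of microglia. The mean Ddr1 share in LS neurons therefore did not exceed that of the background. By library the shares ran from 2.58% to 3.32% in LS neurons and from 1.37% to 3.76% in microglia. Microglia held only 68 Ddr1 UMIs, or 25.15, 40.33, 39.32 and 14.76 CPM in C57J 1, C57J 2, nude and BALB/c. LS neurons held 27.45, 29.81, 29.19 and 29.67 CPM in the same order. Without thinning the share in LS neurons was 21.6% ± 5.81, at a median of 7749 UMIs per LS neuron against 1626 per microglial nucleus. Set against OLs, the level of Ddr1 in LS neurons was 9.30% to 12.9% of the OL level, while the OL markers Mog, Mag and Mobp were at 0.603% to 2.16%. In microglia the same range was 6.42% to 16.2% for Ddr1 and 1.26% to 10.9% for these markers. The mean Ddr1 share in LS neurons was thus near that of microglia, and the libraries of these classes overlapped. Relative to OLs the level of Ddr1 in LS neurons stood higher than any of these 3 OL markers did in every library. The part of free RNA in the Ddr1 level of LS neurons was not tested.

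For Ddr2 the share at 1000 UMIs was 1.51% ± 0.610 in LS neurons, 1.62% ± 0.649 in astrocytes, 7.91% ± 2.06 in vascular nuclei and 0.702% ± 0.260 in microglia. By library, the share in LS neurons was 2.05% (exact Clopper-Pearson 95% interval 1.70% to 2.45%) in C57J 1 and 2.03% (1.66% to 2.45%) in C57J 2. It was 1.00% (0.773% to 1.27%) in nude and 0.969% (0.708% to 1.29%) in BALB/c. Unthinned, the shares were 11.4% and 11.7% in C57J 1 and C57J 2, 5.89% in nude and 9.07% in BALB/c, the deepest library. In other neurons Ddr2 was found in 0.111% to 0.329% of nuclei, at or below the share in microglia. Microglia held only 16 Ddr2 UMIs, and the part of free RNA in the level of other neurons was not tested.

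In LS neurons Ddr2 was measured at 20.4 CPM (exact Poisson 95% interval 19.1 to 21.7, 980 UMIs) in C57J 1 and at 23.9 (22.4 to 25.6, 863 UMIs) in C57J 2. It was 10.6 (9.67 to 11.6, 474 UMIs) in nude and 10.2 (9.47 to 11.1, 637 UMIs) in BALB/c. Both C57J libraries lay above both others, as for 25.9% of all genes tested in LS neurons (the reverse held for 19.2%). The intervals cover counting error only. The mean of the log2 levels was lower by 1.08 in nude and BALB/c, and against the batch-matched C57J 2 the log2 difference was -1.18 for nude and -1.22 for BALB/c. This is the pattern for which Ddr2 was chosen, so it carries no p. The fit of LS neurons held 18796 genes, Ddr2 included. Of these, 1.35% were lower in nude and BALB/c and 0.99% were higher at the limits used here, 2.34% together. Fewer cells holding Ddr2 and less Ddr2 RNA per cell cannot be told apart from a class total, which the clusters of LS neurons address in part.

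LS neurons were reclustered without Ddr1, Ddr2 and the genes of the lists given further on, which gave 24 clusters, named here by number with their leading genes. Ddr2 was concentrated in 3 of them. Cluster LS 11, led by Stac2, Col9a1 and Met, held Ddr2 at 132.3 CPM for C57J 1, 156.8 for C57J 2, 64.6 for nude and 61.9 for BALB/c. Cluster LS 20, led by Etv1 and Agmo, held it at 101.9, 109.7, 33.3 and 31.2 in the same order of libraries. In cluster LS 21, led by Samd5 and Plod2 with the highest Foxp2 level of all LS clusters, the levels were 99.0, 83.4, 39.6 and 48.0. Together these 3 clusters held 8.06% to 9.77% of the LS neurons and 39.2% to 46.7% of the Ddr2 UMIs of the LS neurons of a library.

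The remaining clusters formed a long tail. Means over the 4 libraries ran from 28.7 CPM in LS 19, led by Pde1c and Rai14, to 1.12 in LS 4, led by Mctp2 and Pik3c2g, and 12 of the 24 clusters had means under 10. The cluster with the highest Nts level, LS 5, held Ddr2 at 1.33 ± 0.656 (SD, n = 4), next to the lowest. Ddr1 showed no such concentration among LS neurons, with cluster means of 20.6 to 41.7 CPM.

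**Figure D2:**
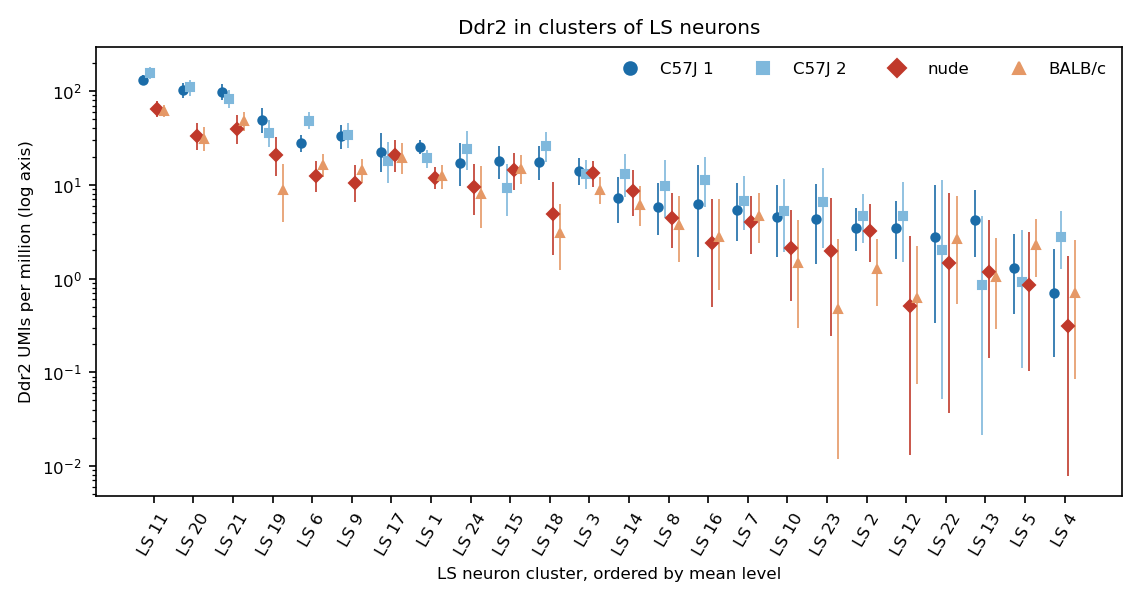
Ddr2 in CPM (log axis) in the 24 clusters of LS neurons, ordered by the mean over libraries, with 1 point per library and exact 95% Poisson intervals. LS 11, LS 20 and LS 21 stand highest, and in 17 of 24 clusters both the nude and the BALB/c point lie below both C57J points.

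Ddr2 was also compared inside clusters. In 17 of the 24 clusters nude and BALB/c were both below both C57J libraries, and in 0 were both above. Over all pairs of a tested gene and an LS cluster with a UMI, 20% were lower in this way and 16.4% higher. The contrast is the one that chose Ddr2, and nothing is read from this count. Several of the 17 rested on few UMIs, such as LS 4 with 15 in all, at 0.7084 CPM for C57J 1 against 0.7067 for BALB/c. In the 7 others the libraries overlapped. Among these was LS 17, led by Calcr, with Ddr2 at 22.7 (13.6 to 35.4) CPM for C57J 1, 18.0 (10.5 to 28.8) for C57J 2, 20.8 (13.8 to 30.1) for nude and 19.5 (13.0 to 28.2) for BALB/c. LS 15, led by Pth2r, was alike in this, at 17.8, 9.25, 14.3 and 14.7. Whether the difference varied between clusters was not tested.

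Cluster shares and cluster levels were then separated by arithmetic. With the shares of the clusters held at the mean of C57J and the measured level of each cluster kept, the log2 ratio to C57J was -1.09 for nude and -1.14 for BALB/c, against -1.06 and -1.11 as measured. With the level of each cluster held at that of C57J and the measured shares kept, the ratio was 0.00 for nude and 0.02 for BALB/c. The 2 C57J libraries differed from their own mean by 0.12 or less on the log2 scale in the measured ratio. The share of LS neurons in LS 11 was 3.86% to 4.46%. It was 2.26% to 2.72% in LS 20 and 1.80% to 3.11% in LS 21. These shares did not fall into the order of the strains, except that both C57J libraries had a larger share of LS 20. Shares of some other clusters did, in both directions. LS 1, with 7.38% to 13.8% of the Ddr2 UMIs of LS neurons, had shares of 9.64% and 10.3% in C57J. In nude it had 8.26% and in BALB/c 5.64%. The share of LS 9 was 2.93% and 3.82% in C57J against 4.55% in nude and 5.64% in BALB/c. The ratio with levels held combines all clusters, so opposite shifts can offset each other in it. When clustered, each nucleus was linked to an equal number of neighbours in every library, and the part of this step in the cluster shares was not tested.

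**Figure D3:**
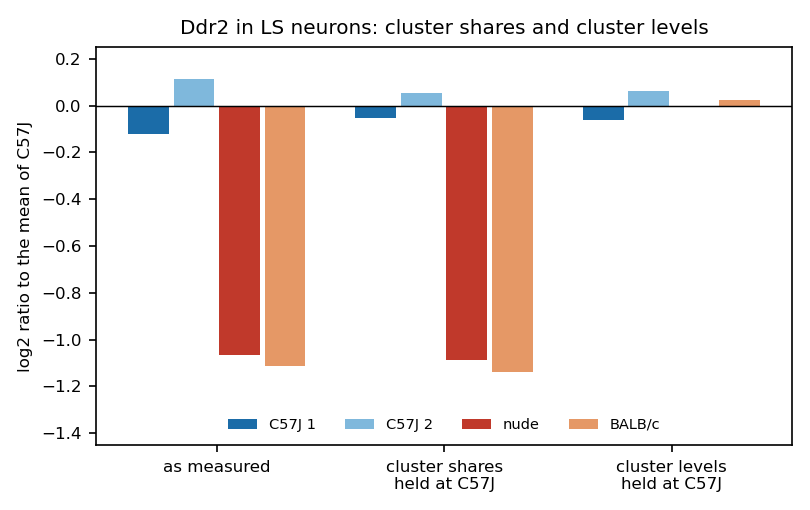
Log2 ratio of the Ddr2 level of LS neurons to the mean of C57J, 1 bar per library, as measured (left), with cluster shares held at C57J (middle) and with cluster levels held at C57J (right). The bars of nude and BALB/c reach -1.06 and -1.11 as measured, stay at -1.09 and -1.14 with shares held, and are 0.00 and 0.02 with levels held.

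Within LS 11 and LS 20 the share of nuclei with a Ddr2 UMI moved in the same direction as the level. For so sparse a gene the share at this depth largely restates the level. It does not tell fewer cells holding Ddr2 from less Ddr2 RNA per cell. At 1000 UMIs per nucleus it was 10.8% (7.10% to 15.5%) and 12.7% (8.50% to 18.1%) of LS 11 in C57J 1 and C57J 2, against 5.58% (3.08% to 9.18%) in nude and 5.80% (3.03% to 9.91%) in BALB/c. In LS 20 the shares were 13.5%, 11.3%, 3.85% and 0.952%, the last from 1 nucleus of 105. In LS 21 they were 7.52%, 6.83%, 2.56% and 8.18%. The BALB/c share there, with an interval of 3.81% to 15.0%, went against its level, and no order is read from it.

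5 further genes of LS neurons, of which the study's text names Met and Etv1 together with Ddr2, gave mixed values in these clusters. Met, the receptor of hepatocyte growth factor, was measured in LS 11 at 162 CPM for C57J 1, 167 for C57J 2, 125 for nude and 173 for BALB/c. Col6a3, a collagen VI chain, was at 49.7, 37.7, 74.3 and 82.0 in that cluster, higher in nude and BALB/c. Its mean in LS 11, 60.9 CPM, was below the 246.2 CPM of LS 9, so that it was not highest in LS 11. In LS 20 the transcription factor gene Etv1 was at 152.4 and 153 in C57J against 215 in nude and 281 in BALB/c. In LS 21 the long noncoding RNA Lncenc1 was at 96.2 and 102.5 in C57J against 82.6 and 54.5, and Rspo3, a Wnt agonist, was at 35.8, 17.3, 36.2 and 21.02. Over all LS neurons none of these 5 genes passed the test, with log2 differences of 0.16 ± 0.15 (SE) for Met, 0.11 ± 0.10 for Col6a3, 0.09 ± 0.13 for Etv1, 0.16 ± 0.24 for Rspo3 and -0.07 ± 0.12 for Lncenc1. Their adjusted p in edgeR's quasi-likelihood test ran from 0.704 to 0.874.

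**Figure D4:**
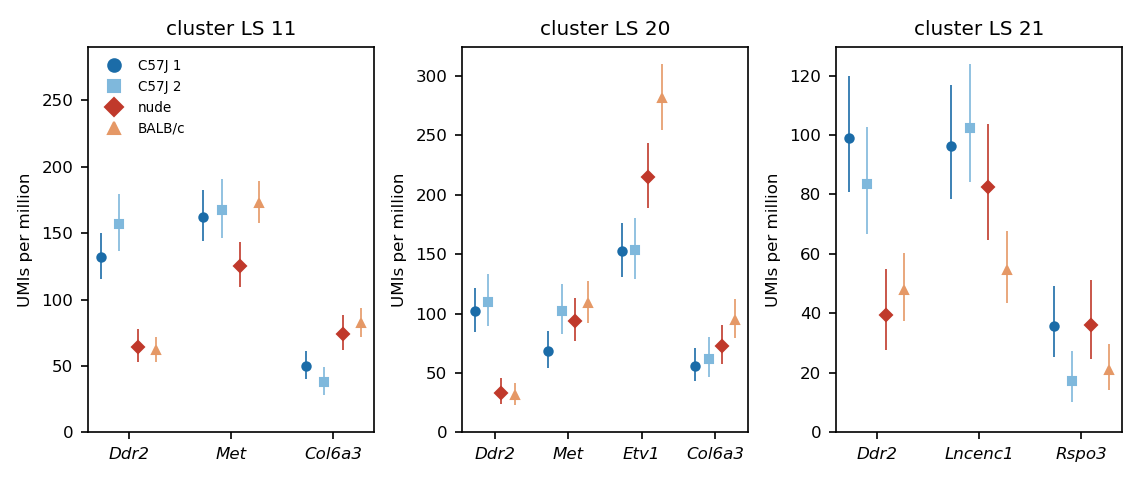
Levels of Ddr2 beside further genes of LS neurons, in CPM (linear axes) in clusters LS 11, LS 20 and LS 21, with 1 point per library and exact 95% Poisson intervals. Ddr2 is lower in nude and BALB/c in each panel, while Met in LS 11 spans 125 to 173 with BALB/c highest and Etv1 in LS 20 is higher in nude and BALB/c.

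By the correlation of log2 levels over the 24 LS clusters, the 4 of 8248 genes most like Ddr2 were C130074G19Rik (Pearson r = 0.80), 4930590L20Rik (0.78), Bmp1 (0.77) and Kcnt2 (0.77). Of the 5 further genes given above, Rspo3 reached 0.52, Col6a3 0.47, Met 0.40 and Etv1 0.10, and Lncenc1 was at -0.18. Over the 31 clusters of all nuclei the genes most like Ddr1 were Tmem98 (0.93), Trim59 (0.90), Anln (0.88), Erbin (0.85) and Ppp2r3a (0.85), and the OL marker Mobp reached 0.82. Clusters share libraries and depth, so these values describe the pattern only.

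Apart from Ddr2 in LS neurons, the 2 receptors gave 9 tests between the strain backgrounds, Ddr1 in 5 classes and Ddr2 in 4. In edgeR's quasi-likelihood test 0 of 9 passed at an adjusted p below 0.05 and a log2 difference beyond 0.5. DESeq2 also gave 0 of 9. On simulated data with changes of 1.5-fold and 2-fold the edgeR fits recovered none of the changed genes in astrocytes and OLs. They missed most of them in LS neurons, other neurons and OPCs. Larger changes were not simulated. Not passing in any of these classes is no evidence of equal levels. At an unadjusted p below 0.05 there were 2 of 9, both of Ddr2, 1 in other neurons and 1 in OLs, where 13.0% and 5.24% of all genes tested were below it. In both classes the mean Ddr2 level was below that of microglia, which rested on 16 UMIs. Free RNA from LS neurons, where Ddr2 was chosen for its difference, could enter both, and its part was not tested. The shares of all genes that passed were 0.899% in other neurons, 0.0563% in astrocytes, 0.0954% in OLs and 0.219% in OPCs, beside the 2.34% of LS neurons.

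Ddr1 in LS neurons was close to equal in the 4 libraries, at 27.5, 29.8, 29.2 and 29.7 CPM in C57J 1, C57J 2, nude and BALB/c. Its log2 difference was 0.06 ± 0.10 (SE, adjusted p = 0.843 in edgeR). In OLs, where Ddr1 was most abundant, C57J 1 held 287.3 and C57J 2 320.7 CPM against 242.8 in nude and 230.0 in BALB/c. Both C57J libraries were above both others there, as for 21% of all genes tested in OLs, and the log2 difference of -0.31 ± 0.22 did not pass (adjusted p = 0.999 in edgeR). Astrocytes held 64.6, 62.6, 58.6 and 45.3 in the same order, with BALB/c lowest and a log2 difference of -0.23 ± 0.17. In other neurons the difference was -0.13 ± 0.13 and in OPCs 0.08 ± 0.19. Nude and BALB/c were below both C57J libraries in astrocytes and other neurons as well, as for 26.8% and 23.4% of all genes tested there, and the libraries overlapped in OPCs.

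Ddr2 outside LS neurons rested on few UMIs. In OLs 17 and 22 UMIs were counted in C57J 1 and C57J 2 and 6 and 5 in nude and BALB/c, or 5.36, 7.53, 2.93 and 0.846 CPM. The log2 difference was -1.99 ± 0.64 (adjusted p = 0.730 in edgeR). In other neurons 45, 35, 20 and 21 UMIs gave 2.49, 2.55, 1.60 and 0.982 CPM, with a log2 difference of -0.99 ± 0.37 (adjusted p = 0.323 in edgeR). Nude and BALB/c lay below both C57J libraries in these classes, as for 21% of all genes tested in OLs and 23.4% in other neurons, and neither difference passed. Microglia held 6.71, 12.8, 2.07 and 4.92 CPM in the same order, above other neurons in each library and above OLs in all but nude.

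As whole classes, astrocytes and OPCs, whose Ddr2 level was similar to that of LS neurons, gave log2 differences nearer to 0. Astrocytes held 14.0, 22.6, 13.0 and 16.1 CPM in C57J 1, C57J 2, nude and BALB/c, so that the 2 C57J libraries were further apart than the groups, and the log2 difference was -0.22 ± 0.30 (adjusted p = 0.898 in edgeR). Without C57J 2 it turned to 0.14. The astrocyte clusters differed in direction. That of 5078 nuclei held Ddr2 at 16.26 CPM in C57J 1 and 25.15 in C57J 2 against 10.14 in nude and 16.22 in BALB/c. That of 1562 nuclei held it at 8.363 and 16.51 against 21.04 and 18.48. In the cluster of 864 nuclei the libraries overlapped. These clusters held 247, 73 and 24 Ddr2 UMIs in the order given, and their differences were not tested. OPCs held 16.9, 14.3, 14.7 and 11.6, with a log2 difference of -0.22 ± 0.33 (adjusted p = 0.923 in edgeR). Whether the differences of astrocytes and OPCs are smaller than that of LS neurons was not tested.

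**Figure D5:**
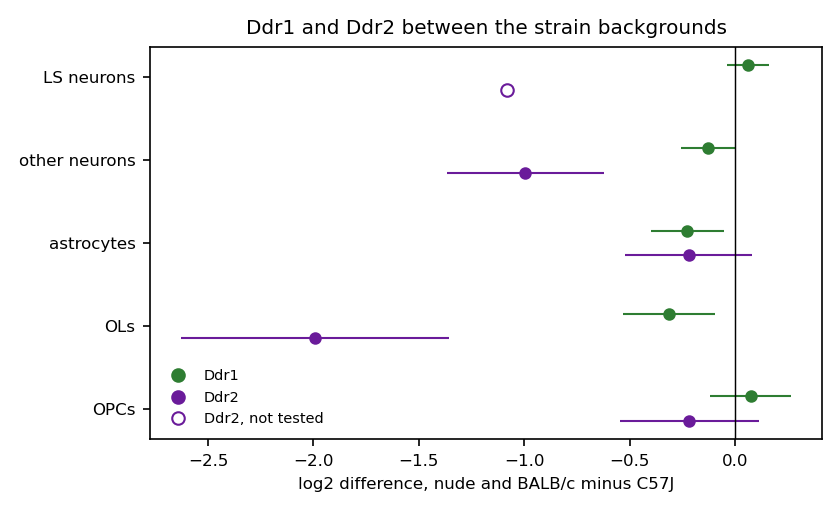
Log2 difference of Ddr1 and Ddr2, nude and BALB/c minus C57J, in the 5 classes tested, as the edgeR estimate with its SE (bars). The open symbol is Ddr2 in LS neurons, the value of -1.08 that was not tested because it chose the gene. Ddr1 lies between -0.31 and 0.08, and Ddr2 reaches -1.99 ± 0.64 in OLs.

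In vascular nuclei Ddr2 stood at 81.1 (32.6 to 167) CPM for C57J 1, 75.0 (30.1 to 154) for C57J 2, 67.5 (21.9 to 158) for nude and 182.6 (129 to 251) for BALB/c, from 7, 7, 5 and 38 UMIs. BALB/c was highest, the reverse of its place in LS neurons. The class had 35 to 69 nuclei per library and was not tested. The summed level of its 4 fibroblast markers (Dcn, Lum, Slc6a13 and Ranbp3l) was 197 for C57J 1, 225 for C57J 2, 418.5 for nude and 2595 for BALB/c, and the part of fibroblasts in the Ddr2 value was not tested. In LS neurons the same markers summed to 1.98 to 2.98 CPM and in astrocytes to 126 to 144. The study uses Ranbp3l as a marker of an astrocyte subcluster. In vascular nuclei the 4 astrocyte markers summed to 718.5 for C57J 1, 856.5 for C57J 2, 513 for nude and 1711 for BALB/c. The part of astrocytes in the Ddr2 value was not tested either.

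The genes around the receptors were read from 5 lists of 51 genes. At an unadjusted p below 0.05 were 14.6% of all genes tested in LS neurons, and 10 of the 47 list genes tested there, or 21.3%. Of the collagens that the receptors bind, 10 of 11 were measurable in LS neurons and 0 passed in edgeR, with 2 at an unadjusted p below 0.05. Their median log2 difference was -0.02, against -0.01 over all genes tested. The basement membrane chains Col4a2 and Col4a1 were the most abundant of them in LS neurons, with 51.4, 49.1, 59.0 and 69.3 and with 31.4, 36.3, 40.3 and 42.8 CPM in C57J 1, C57J 2, nude and BALB/c. Fibrillar Col1a2 was at 92.7, 42.8, 27.0 and 283.5 CPM in vascular nuclei of these libraries, with BALB/c highest, and on average at 44.7 in astrocytes and 0.770 in LS neurons. Col3a1 was at 23.2, 42.8, 0 and 115.3 in vascular nuclei, the 0 from a library where 3 counts would give 40.5, and on average at 0.0625 in LS neurons. On average Col11a1 was highest in OPCs at 125.5. In BALB/c vascular nuclei held more of it, at 173.0 from 36 UMIs, against 154.2 in OPCs.

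Of the other collagen receptors, 8 of 9 were measurable in LS neurons and 0 passed (1 at an unadjusted p below 0.05), with a median log2 difference of -0.24. Itgb1, the common beta chain of collagen-binding integrins, was at 61.6 ± 3.01 CPM (SD, n = 4) with a log2 difference of 0.12 ± 0.09, and Adgrg1, an adhesion receptor for collagen III, at 13.4 ± 1.478. Itga1, an alpha chain that pairs with Itgb1, stood at a higher level in vascular nuclei than in LS neurons, at 359.8 on average against 1.96. Lair1, an inhibitory collagen receptor of immune cells, was at 520.7 in microglia.

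Of the sheddases and matrix proteases, 4 of 5 were measurable in LS neurons and 0 passed, with 1 at an unadjusted p below 0.05 and a median of -0.44. Adam10 was measured at 117, 109, 102 and 111 CPM, whereas Mmp14, a membrane-type protease, was low at 1.62, 1.17, 0.783 and 0.531 (log2 difference -1.09 ± 0.35, adjusted p = 0.209 in edgeR). Of the other genes with discoidin domains, 10 of 10 were measurable and 0 passed (4 at an unadjusted p below 0.05), with a median of 0.15. Cntnap2, a neuronal adhesion gene, was at 3957 ± 206 and Nrp1, a semaphorin receptor, at 284 ± 11.7.

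Signalling partners held the single list gene that passed in any of the 5 classes, as 15 of 16 were measurable in LS neurons and 1 was higher. This is 1 of the 47 list genes tested there, beside 2.34% of all genes, so the count says nothing particular about the lists. Vav3, a guanine nucleotide exchange factor, was measured at 20.6 CPM for C57J 1, 16.9 for C57J 2, 31.2 for nude and 39.0 for BALB/c, with nude and BALB/c above both C57J libraries. The log2 difference was 0.92 ± 0.16 (adjusted p = 0.0407 in edgeR). It missed the limit without nude (adjusted p = 0.0537 in edgeR) and without BALB/c (0.250), each with 3 libraries, while the log2 difference was 1.1 and 0.74. The median of the list was 0.10. Pard3, a polarity gene, was at 273 ± 19.9 and Wwc1, a Hippo pathway scaffold, at 118 ± 9.11 (SD, n = 4). In other neurons, astrocytes, OLs and OPCs 43, 39, 31 and 29 of the 51 list genes were measurable and 0 passed in edgeR, with 6, 1, 4 and 5 at an unadjusted p below 0.05, beside 13.0%, 7.39%, 5.24% and 7.49% of all genes tested. DESeq2 gave 1 list gene in OLs.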

How the data were processed

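Nuclei from frozen LS tissue were profiled with a 10x Genomics 3' kit. The authors deposited raw UMI counts per gene and barcode, which the submitters' processing notes credit to Cell Ranger 7.0.1 with mm10. Whether intronic reads were counted is not given in the sources used here. Barcodes with over 200 and under 6000 genes, over 300 and under 50000 UMIs and under 2% mitochondrial UMIs were kept, and predicted doublets removed. Nuclei were clustered with leidenalg 0.10.2, linking each to 6 neighbours per library, without Ddr1, Ddr2, the list genes, 88 strain genes and 6 sex-linked genes. Classes were named from fixed markers, with limits (a score of 0.3 and 150 CPM) settled after the clusters were seen. The score limit applied to neurons as a whole and to the other types. Types of neuron were named by the highest score alone, and the lowest LS neuron score in that class was 0.261. A cluster with Gm42418 among its leading genes was left unnamed whatever its scores. The 800 unnamed nuclei scored 0.511 for neurons and 0.313 for LS neurons. UMIs were summed per library and class and tested with edgeR 4.0.16 (filterByExpr, TMM, quasi-likelihood, Benjamini-Hochberg), C57J against nude and BALB/c together, in R 4.3.3. DESeq2 1.42.0 was an alternative, beside other scaling, no filter, thinning, stricter limits, doublets kept, a finer resolution, another seed and leaving out each library. The fits were tested on simulated data with 200 genes changed 1.5-fold or 2-fold, and larger changes were not simulated. In astrocytes and OLs none of these was recovered, and in LS neurons, other neurons and OPCs most were missed. A gene that did not pass in any class may therefore still differ. Intervals cover counting error only. The p-values measure the spread between 2 C57J pools of different batches and between 1 nude and 1 BALB/c pool. They hold no spread between like pools of 1 batch. Members and lists were chosen with earlier results of these data known. Named genes were the members, list genes that passed, the 2 most abundant genes per list in LS neurons, 5 further genes of LS neurons (Met, Col6a3, Etv1, Rspo3 and Lncenc1) and the 5 genes most alike each member. An OL marker and a gene that this rule names are not reported here. Col1a2, Col3a1, Col11a1, Itga1 and Lair1 were named after their values were seen. Gene positions came from GENCODE M21.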

Additional observations from a re-analysis of the deposited data

Results flagged for a closer look

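Ddr1 lay on different sides in different clusters of LS neurons. Nude and BALB/c were both above both C57J libraries in 5 of 24 clusters (LS 5, LS 7, LS 9, LS 10 and LS 15) and both below in 3 (LS 11, LS 13 and LS 19). In LS 7, led by Esr1, Ddr1 was at 23.1 CPM for C57J 1, 36.1 for C57J 2, 44.9 for nude and 39.9 for BALB/c. In LS 11, the cluster with the most Ddr2, it was at 31.1, 41.4, 19.4 and 23.6. Over all pairs of a tested gene and an LS cluster with a UMI, 16.4% were higher and 20% lower in this way, and nothing particular to Ddr1 is read from these counts. The difference between clusters was not tested.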

How the results depend on the processing

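No paired analysis was possible, because the libraries pooled different mice and batch 1 held C57J 1 alone. None of the 105 alternative fits of Ddr1 and Ddr2 passed (adjusted p from 0.076 to 1 in edgeR or DESeq2), and 3 were opposite in sign: Ddr2 in astrocytes at 0.14 without C57J 2, and Ddr1 in OPCs at -0.03 without C57J 1 and -0.15 with thinned nuclei. With 1 library left out Ddr2 in astrocytes ran from -0.54 to 0.14 and Ddr1 in OPCs from -0.03 to 0.18. Ddr2 in LS neurons stayed between -1.2 and -0.97, and with another seed its BALB/c ratio at held shares was -1.02. Counts of genes that passed moved widely, and the cause was not tested. In LS neurons (439) there were 659 with DESeq2, 1112 with no filter, 224 thinned and 98 to 927 with 1 library left out. In other neurons (151) there were 373, 1088, 30 and 0 to 1214, and 94 with another seed. In astrocytes (8) there were 94, 465, 5 and 0 to 1462. In OLs (12) there were 79 with DESeq2, 235 with no filter, 63 with doublets kept, 1 at resolution 2 and 0 to 560 with 1 library left out. In OPCs (24) there were 190 with no filter, 63 with doublets kept, 8 thinned and 33 to 415. List genes that passed numbered 0 thinned and 0 to 3 with 1 library left out in LS neurons, 2 with no filter and 0 to 3 in other neurons, 0 to 5 in astrocytes, 1 with DESeq2, 2 with no filter, 1 with doublets kept and 0 to 6 in OLs, and 1 with no filter and 0 to 4 in OPCs. Shares with a UMI, thinned to 500 and unthinned, were for Ddr1 1.67% and 21.6% in LS neurons, 12.3% and 44.7% in OLs, and 1.54% and 4.87% in microglia. For Ddr2 they were 0.792% and 9.52% in LS neurons, 0.837% and 4.11% in astrocytes, 0.261% and 1.15% in microglia, and 5.59% and 15.7% in vascular nuclei. Ddr2 rested on 50 UMIs in OLs, 95 in OPCs and 121 in other neurons.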

Other observations

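Genes near the receptors were read from the same fits. Within 1 Mb of Ddr2, 16 genes were tested in LS neurons and 0 passed in edgeR, with 2 at an unadjusted p below 0.05, beside 14.6% of all genes tested. Within 1 Mb of Ddr1, 73 were tested and 4 passed, or 5.48%, beside 2.34% of all genes tested. A930015D03Rik was at 98.0 and 108.0 CPM in C57J 1 and C57J 2 against 37.9 in nude and 40.2 in BALB/c, and Tnxb at 6.32, 8.26, 3.18 and 2.54. H2-Q2, which has close paralogs, was lower, and Gm6034 was higher.

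An antisense gene, 3110045C21Rik, overlaps Ddr2 by 90 bases and was at 0.246 to 0.520 CPM in LS neurons. The unnamed cluster of 800 nuclei held Ddr2 at 28.1, 14.6, 5.36 and 0 CPM in C57J 1, C57J 2, nude and BALB/c, from 17 UMIs in all.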
